A study of Mus musculus with 64 samples.

Results

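The genes described here carry the symbols Mrpl and Mrps, which are given to proteins of the large and the small subunit of the mitochondrial ribosome. They were taken by symbol, as every row named Mrpl or Mrps with a number and at most 1 letter from a to c, which gave 78 of 55487 genes, 49 Mrpl and 29 Mrps. All 78 were protein-coding genes in GENCODE release M21 (GRCm38), spread over 17 chromosomes, and the 6 rows named as pseudogenes of these genes (with ps in the symbol) were left out. Expression was measured in the liver of male C57BL/6J mice by BRB-seq, which tags the 3′ ends of mRNAs with sample barcodes and unique molecular identifiers (UMIs), so that each count stands for 1 captured molecule. Every mouse was fed ad libitum and carried an AAV8 vector with a short hairpin RNA, injected 4 weeks before the liver was taken. The control group (sh-Ctl) received a control hairpin and the other group (sh-Acsf3) a hairpin against Acsf3, which encodes a mitochondrial acyl-CoA synthetase for malonate. Livers came from 8 zeitgeber times (ZT, hours after lights on), 3 h apart, with 4 libraries per treatment and time, or 64 libraries in 16 groups. The labels do not say that replicates are separate animals, so the p-values measure the spread between these libraries.

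The mitochondrial ribosome translates the few mRNAs of the mitochondrial genome, all of them for subunits of the respiratory chain and the ATP synthase. Its rRNAs are made inside mitochondria, whereas all of its proteins are encoded in the nucleus, made in the cytosol and imported. Part of these proteins have counterparts in the bacterial ribosome and the rest are specific to mitochondria. The liver is rich in mitochondria, and many of its metabolic genes follow the daily cycle of feeding and fasting.

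The promoters of mitochondrial genes often hold sites for the ETS factor GABPA, for NRF1 and for YY1, while the E-box, D-box and ROR element are the sites of the circadian clock. The 250 bases before the start were read from RefSeq (GRCm38.p6), where 69 of the 78 members had an entry, with 75 windows in all. The sequences below belong to the members with the smallest p of the treatment difference (Mrps24, Mrpl18 and Mrpl28) and of the 24 h rhythm in sh-Ctl (Mrpl34 and Mrpl36) among those with an entry. Each is written 5′ to 3′ on the strand of the gene and ends just before the start. Capitals mark matches to 8 motifs on either strand. The letters searched were CCGGAAG for the ETS family, GCATGCGC for NRF1 and AAGATGGC for YY1. For general promoter elements they were GGGCGG as the GC box and the CCAAT box by its own letters. For the clock they were CACGTG as the E-box, TTATGNAA as the D-box and TAGGTCA as the ROR element. A match describes the letters only.
Mrps24, chr11:5707702-5707951, minus strand: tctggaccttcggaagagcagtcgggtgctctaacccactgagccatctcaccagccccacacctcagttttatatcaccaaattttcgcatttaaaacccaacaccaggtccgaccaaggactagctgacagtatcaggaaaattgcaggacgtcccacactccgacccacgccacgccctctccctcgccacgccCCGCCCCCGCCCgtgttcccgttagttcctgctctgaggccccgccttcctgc
Mrpl18, chr17:12916092-12916341, minus strand: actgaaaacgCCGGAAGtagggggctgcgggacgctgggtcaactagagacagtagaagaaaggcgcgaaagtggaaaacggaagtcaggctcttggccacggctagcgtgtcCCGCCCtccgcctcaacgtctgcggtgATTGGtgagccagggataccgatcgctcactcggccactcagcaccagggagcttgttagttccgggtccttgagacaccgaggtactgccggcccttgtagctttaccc
Mrpl28, chr17:26123253-26123502, plus strand: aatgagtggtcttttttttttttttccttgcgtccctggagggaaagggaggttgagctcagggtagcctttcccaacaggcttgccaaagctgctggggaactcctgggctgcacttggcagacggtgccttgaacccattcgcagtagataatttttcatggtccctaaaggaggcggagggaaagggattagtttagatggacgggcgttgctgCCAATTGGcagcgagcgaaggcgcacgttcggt
Mrpl34, chr8:71464676-71464925, plus strand: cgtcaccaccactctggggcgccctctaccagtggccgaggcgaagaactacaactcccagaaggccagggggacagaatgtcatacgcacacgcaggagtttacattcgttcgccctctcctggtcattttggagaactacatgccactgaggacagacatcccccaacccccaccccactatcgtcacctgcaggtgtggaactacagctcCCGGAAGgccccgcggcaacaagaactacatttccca
Mrpl36, chr13:73330759-73331008, plus strand: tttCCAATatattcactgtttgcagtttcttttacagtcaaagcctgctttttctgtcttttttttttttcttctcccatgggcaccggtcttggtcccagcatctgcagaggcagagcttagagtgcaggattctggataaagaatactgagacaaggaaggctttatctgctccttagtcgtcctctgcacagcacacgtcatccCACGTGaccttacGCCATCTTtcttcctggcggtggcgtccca

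The start meant here is that of RefSeq, and the windows of Mrps24, Mrpl18 and Mrpl36 lie inside the GENCODE span of the gene. The first match in Mrps24 is a GC box 53 bases before the start, followed by another at 47 bases. Mrpl18 holds an ETS match, a GC box and a CCAAT box at 240, 137 and 110 bases before its start. In Mrpl28 a pair of overlapping CCAAT boxes on opposite strands begins 33 and 30 bases before the start. Mrpl34 holds 1 match, an ETS site that begins 37 bases before the start, and Mrpl36 holds a YY1 match at 30 bases, an E-box at 43 and a CCAAT box at 247.

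Among all members, the ETS letters stood in 24.0% of the 75 windows, against 13.9% of the 10288 windows of tested genes and 6.91% of all 32851 windows of the same length. The NRF1 letters stood in 10.7% of the members' windows, against 4.36% of those of tested genes and 2.26% of all. The YY1 letters stood in 5.33%, 1.99% and 1.56% of the 3 sets. With the 50 bases after the start included, the YY1 share of the members was 16.0%, against 4.56% of tested genes, and the ETS share 34.7% against 18.2%. The E-box was found in 9.33% of the members' windows and 8.49% of those of tested genes, in Mrpl2, Mrpl20, Mrpl36, Mrpl37 and Mrps18c. The D-box (Mrps31) and the ROR element (Mrpl53) each stood in 1.33% of the members' windows, against 2.1% and 1.9% of those of tested genes. The GC box was found in 49.3% of the members' windows and 57.3% of those of tested genes, and the CCAAT box in 37.3% and 34.9%. A protein-coding neighbour on the other strand started within 1000 bases of 18 members (23.1%), against 10.6% of 9765 tested protein-coding genes. Mrpl30 faces Mitd1 in this way, Mrpl49 faces Fau, a cytosolic ribosomal protein gene, and Mrps18c faces the helicase gene Helq.

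Sequencing depth was 1.48 to 6.06 M UMIs per control library (median 3.13) and 0.839 to 9.35 M per sh-Acsf3 library (median 2.03). The members together took 4479 to 22087 UMIs of a control library (median 10015) and 2898 to 28047 of an sh-Acsf3 library (median 6734), so a typical sh-Acsf3 value rests on fewer molecules. Acsf3 itself lay at 6.32 to 18 CPM (counts scaled to a common total after TMM normalization) in sh-Ctl, with a median of 11.1, and at 0 to 7.31 CPM in sh-Acsf3, with a median of 2.49. Its averaged difference of -2.23 ± 0.13 (log2, SE) had an edgeR adjusted p of 1.82e-21. Hepatocyte markers were high throughout, with a summed CPM of 125600 at the median of the sh-Ctl libraries and of 126800 at that of the sh-Acsf3 libraries. In 4 sh-Ctl libraries the acute-phase gene Saa1 exceeded 1000 CPM, and in 8 libraries (2 sh-Ctl, 6 sh-Acsf3) 17 pancreas genes together exceeded 100 CPM. These sets hold 12 libraries in all.

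The members were moderately expressed, and 75 of the 78 had enough UMIs to be tested. Counts of 3′ ends do not grow with transcript length, so CPM values were compared without dividing by length. Mean CPM over all libraries ran from 2.61 to 161 in tested members, with a median of 35.7. Mrpl52, a mitochondria-specific protein of the large subunit, had the highest mean at 161 CPM, next to Mrps24 at 150.8 CPM. Mrps33 had the lowest mean of the tested members at 2.61 CPM, after Mrpl23 at 4.49 CPM. Mrpl23 has a pseudogene row with 1091 UMIs against 870 of its own, so its value depends on how the authors' counting split near-identical reads. Mrpl53 held 10 UMIs in all 64 libraries and was at 0 in 55 of them. Mrps18b held 115 UMIs and Mrps36 218, and all 3 stayed out of the tests.

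Summed over the members, CPM ran from 3007 to 3612 in the 32 sh-Ctl libraries (median 3299) and from 2877 to 3508 in the 32 sh-Acsf3 libraries (median 3149). The ranges overlapped over most of their length. At ZT0 the 4 sh-Ctl libraries lay at 3101, 3238, 3488 and 3612 CPM and the 4 sh-Acsf3 libraries at 2877, 2962, 3155 and 3189 CPM. At ZT18, where the sh-Ctl mean was highest (3362 CPM ± 74.8, SD, n = 4), the sh-Acsf3 mean was 3242 ± 222. Between the lowest and the highest group mean of sh-Ctl, 3149 at ZT6 and 3362 at ZT18, the summed level moved by less than the range of the 4 libraries at ZT0.

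The first comparison asks which members differed between the treatments over the day. Averaged over the 8 times, 10 members were lower in sh-Acsf3 and 1 was higher at an edgeR adjusted p under 0.05. The 11 called members make 14.7% of those tested, near the 14.5% called among all 10097 genes. By direction, 13.3% of the members were lower, against 6.21% of all genes, and 1.33% were higher, against 8.26% of all genes. The median difference was -0.08 (log2) over the members and -0.01 over all genes tested. All members lay within 0.25 of 0, from -0.23 to 0.20, and 58 of 75 (77.3%) were below 0, against 52.7% of all genes. When libraries were scaled by their totals alone, the members' median was -0.02 and that of all genes 0.05, 44 of 75 members were below 0, and 1 member was called lower and 2 higher.

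**Figure D1:**
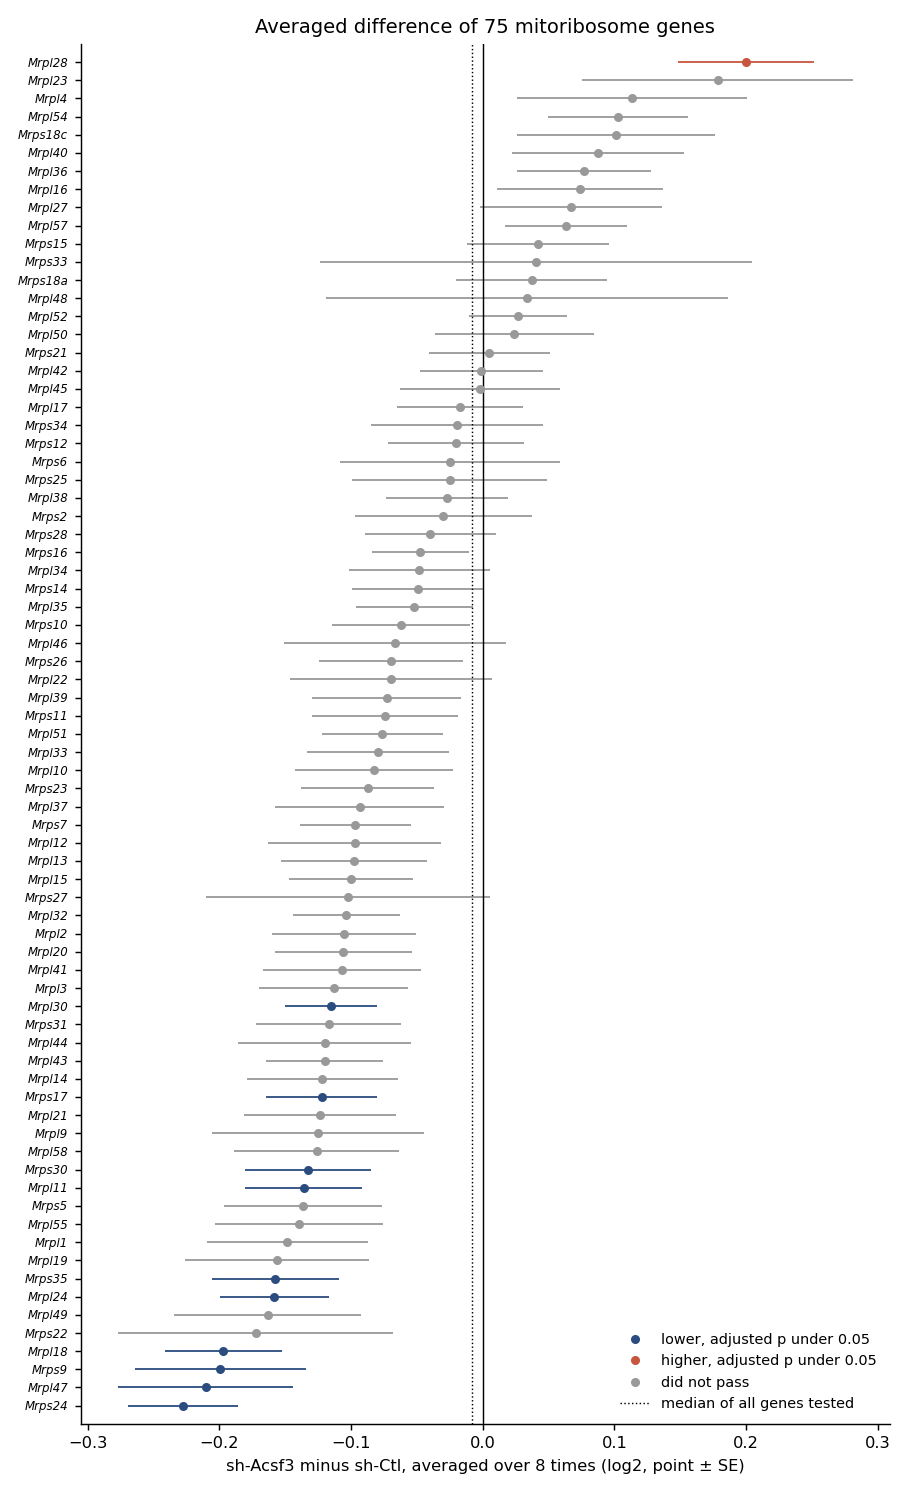
Difference between sh-Acsf3 and sh-Ctl averaged over the 8 times (x axis, log2) for each of the 75 tested members (y axis, sorted), with points for the estimate and bars for its SE. The dotted line is the median of all genes tested (-0.01). Most points lie to the left of it, 10 of them called lower (dark blue), and Mrpl28 on the far right is the 1 called higher (red).

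Mrps24 had the smallest p of the members. It is the counterpart of a universal small-subunit protein at the entry of the mRNA channel, and lies at chr11:5703983-5715680 (minus strand, GRCm38), where it overlaps Urgcp on the same strand, so that reads of the shared part could go to either gene. Its level ran from 129 to 193 CPM in sh-Ctl (median 164) and from 93.6 to 166 CPM in sh-Acsf3 (median 138). The ranges overlapped, but 19 of the 32 sh-Acsf3 libraries lay below every sh-Ctl library of their own time and none above. Mrps24 fell by 0.23 ± 0.04 (log2, SE; 14.6% lower), from a mean of 163 CPM ± 16.9 to 139 ± 14.9 (SD within times, n = 32 each), with an edgeR adjusted p of 3.50e-05, and its mean was lower at 8 of 8 times. It was called under each of 15 other settings and with each of the 64 libraries left out.

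Mrpl18 lies at chr17:12911349-12916345 (minus strand), overlaps Tcp1 on the other strand, and is the counterpart of the protein that binds the small rRNA of the bacterial large subunit. Its level ran from 49.8 to 82.9 CPM in sh-Ctl (median 62.0) and from 41.9 to 75.4 CPM in sh-Acsf3 (median 54.1). Again 19 sh-Acsf3 libraries lay below every sh-Ctl library of their time, and 3 lay above. Mrpl18 fell by 0.20 ± 0.04 (edgeR adjusted p = 0.000858) and was lower at 7 of 8 times. With totals alone as the scale its adjusted p was 0.0877, and it did not pass without the third replicates either.

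Mrpl28, a large-subunit protein with a bacterial counterpart at chr17:26123500-26126613 (plus strand), was the 1 member that rose. Its level ran from 40.1 to 71.3 CPM in sh-Ctl (median 52.9) and from 45.5 to 87.2 CPM in sh-Acsf3 (median 57.9). The ranges overlapped, with 19 sh-Acsf3 libraries above every sh-Ctl library of their time and 2 below. The averaged difference was 0.20 ± 0.05 (edgeR adjusted p = 0.00376), with higher means at 7 of 8 times. Without the fourth replicates, and without the 12 libraries high in Saa1 or pancreas RNA, it did not pass (adjusted p up to 0.0770).

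**Figure D2:**
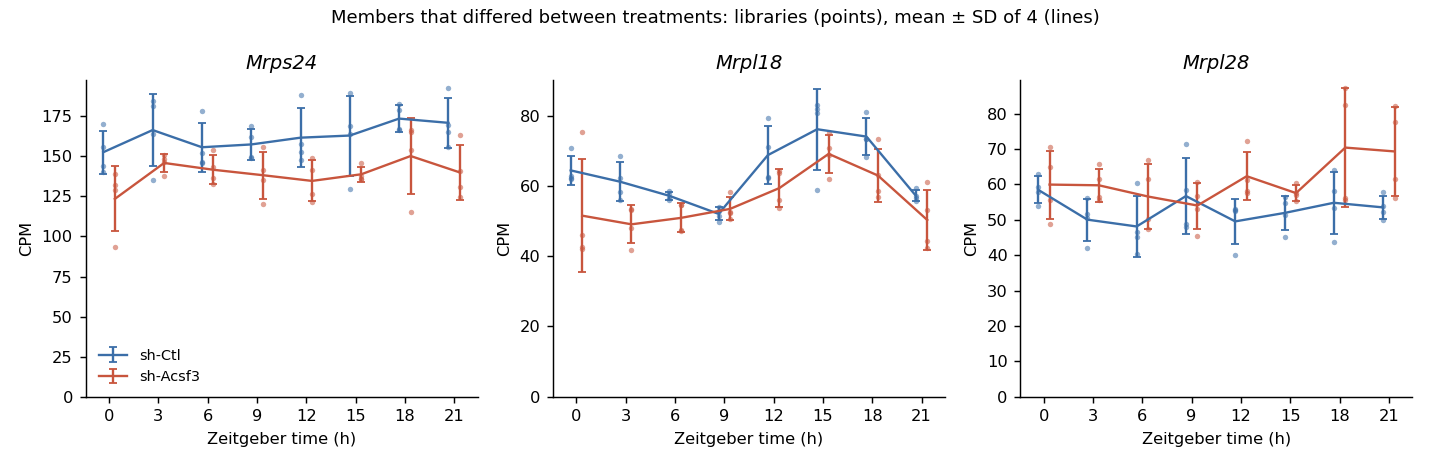
CPM (y axis, from 0) of Mrps24, Mrpl18 and Mrpl28 against zeitgeber time (x axis, h), with 1 point per library and lines for the mean ± SD of 4 libraries, blue for sh-Ctl and red for sh-Acsf3. The red line of Mrps24 lies below the blue one at 8 of 8 times and that of Mrpl28 above it at 7.

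The other 8 members that fell did so by 7.69% to 13.6%. Among those of the large subunit, Mrpl24 (chr3:87919506-87923672, plus strand; the bacterial counterpart starts large-subunit assembly) changed by -0.16 ± 0.04 (log2, SE; adjusted p = 0.00452) and Mrpl30 (chr1:37890477-37898535, plus) by -0.12 ± 0.03 (0.0165). Mrpl47 (chr3:32725397-32737605, minus), whose counterpart sits at the exit of the peptide tunnel, changed by -0.21 ± 0.07 (0.0225), and Mrpl11 (chr19:4962147-4966999, plus), part of the base of the ribosomal stalk, by -0.14 ± 0.04 (0.0290). Among those named for the small subunit, Mrps35, a mitochondria-specific protein at chr6:147042764-147073991 (plus), changed by -0.16 ± 0.05 (0.0187) and Mrps9 (chr1:42851233-42905683, plus) by -0.20 ± 0.06 (0.0271). Mrps17 (chr5:129715497-129722556, plus) changed by -0.12 ± 0.04 (0.0399). Mrps30 (chr13:118378381-118387252, minus), which sits in the large subunit despite its name, changed by -0.13 ± 0.05 (0.0497). In each of these 8 the ranges of the treatments over 32 libraries overlapped, as in Mrpl47, at 17.7 to 36.2 CPM in sh-Ctl and 13.8 to 31.8 CPM in sh-Acsf3.

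Several of these calls depended on single libraries or on the settings. Mrpl11 and Mrps9 did not pass without replicate 3 of sh-Acsf3 at ZT21 (adjusted p 0.0552 and 0.0508), and 6 members were called lower in that fit. Mrps17 passed in 41 and Mrps30 in 25 of the 64 fits that left out 1 library. Of 15 other settings, Mrps30 passed in 2, losing its call with DESeq2, limma-voom, RLE size factors and the replicate block among others, and Mrps17 passed in 7. Mrpl24 and Mrpl47 passed in 12 of the 15, Mrps35 in 11, Mrpl30 and Mrps9 in 10 and Mrpl11 in 9, and each of these 8 members lost its call with totals only.

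Both subunits, taken by symbol, held lowered members, with Mrps30 counted among the Mrps genes. Of 48 tested Mrpl genes 5 were lower (10.4%) and 1 higher (median -0.09), and of 27 tested Mrps genes 5 were lower (18.5%) and none higher (median -0.06). Of the 45 members with a bacterial counterpart 8 were lower (17.8%) and 1 higher (median -0.10), and of the 30 tested mitochondria-specific members 2 were lower (6.67%) and none higher (median -0.07). Mrps18a, a paralog of Mrps18c, was counted as mitochondria-specific. Among all genes 6.21% were lower and 8.26% higher. The difference between these classes was not tested.

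The second comparison asks whether the difference depended on the time of day. At no single time did a member pass the edgeR threshold, with 4 libraries against 4, while 0.515%, 0.0693%, 0.218%, 0.357%, 1.40%, 0.0297%, 0.168% and 0.317% of all genes passed from ZT0 to ZT21. At an unadjusted p under 0.05 there were 9 members at ZT0 (9.36% of all genes), 5 at ZT3 (6.30%), 2 at ZT6 (7.07%), 4 at ZT9 (8.84%), 9 at ZT12 (13.2%), 4 at ZT15 (5.35%), 2 at ZT18 (5.79%) and 7 at ZT21 (11.6%). As shares of the 75 members these counts were 12.0%, 6.67%, 2.67%, 5.33%, 12.0%, 5.33%, 2.67% and 9.33% from ZT0 to ZT21. At ZT6, ZT9 and ZT18 the members' share lay furthest below that of all genes. The members' median was lowest at ZT0, at -0.15, where 59 of 75 were below 0, and lay between -0.08 and -0.02 at the other 7 times. DESeq2 and limma-voom called no member at a single time either.

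The smallest unadjusted p at a single time was that of Mrpl24 at ZT15, 0.00122, with a difference of -0.39 ± 0.12 (adjusted p = 0.342). Mrpl34 at ZT0 lay at 61.8, 61.8, 76.5 and 85.7 CPM in sh-Ctl and at 46.4, 46.9, 53.9 and 56.8 CPM in sh-Acsf3. The groups did not overlap there, but the difference of -0.49 ± 0.15 had an adjusted p of 0.150.

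The test that the 8 differences are equal passed for none of the genes (0% of 10097), and at an unadjusted p under 0.05 it held 1 member (1.33%) and 3.03% of all genes. That member was Mrpl14, which sits at the face between the subunits (unadjusted p = 0.0377, adjusted 1.00). Its difference was 0.29 at ZT0 and -0.39 at ZT12. In sh-Ctl its libraries at ZT12 lay at 75.5, 86.6, 113 and 117 CPM, and in sh-Acsf3 at 58.0, 71.7, 76.6 and 94.4 CPM, so the groups overlapped. Mrpl24, Mrpl17 and Mrpl49 followed with unadjusted p of 0.0528, 0.107 and 0.140.

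The third comparison asks which members followed a 24 h rhythm. In sh-Ctl 11 of 75 members (14.7%) passed, against 19.4% of all genes, and in sh-Acsf3 9 (12.0%), against 19.6%. In both treatments 5 members (6.67%) passed, against 11.7% of all genes: Mrpl34, Mrpl18, Mrps21, Mrpl42 and Mrps16. The median amplitude (mean to peak, log2) was 0.09 over the members in sh-Ctl and 0.15 over all genes. In sh-Acsf3 it was 0.10 and 0.16. Of the 11 members rhythmic in sh-Ctl 9 peaked between ZT12 and ZT24, 3 of them before ZT18 and 6 after it, in windows that held 27.4% and 22.4% of all rhythmic genes.

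Mrpl34 had the smallest rhythm p of the members in both treatments. It encodes a small protein of the large subunit with a bacterial counterpart and lies at chr8:71464959-71465747 (plus strand). In sh-Ctl it was highest at ZT0, at the values given above, and lowest at ZT6, at 31.7, 44.6, 47.2 and 51.0 CPM, with no overlap between these times. Here and for the members below, such times were picked as those of the highest and lowest means. Their separation is therefore no further test of a rhythm. The fitted amplitude was 0.30 ± 0.06 (log2, SE), a peak-to-trough fold of 1.51, with the peak at ZT 21.4 ± 0.79 h and an edgeR adjusted p of 0.000133. In sh-Acsf3 the libraries lay at 63.3, 65.5, 67.0 and 82.3 CPM at ZT21 and at 41.2, 42.2, 42.5 and 49.6 CPM at ZT6, again without overlap. The amplitude there was 0.29 ± 0.05, with the peak at ZT 19.7 ± 0.65 h (adjusted p = 0.000400). The call stood under each of 16 other settings and with each library left out, in both treatments.

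Mrpl36 and Mrpl4 peaked near the same part of the day in sh-Ctl. Mrpl36, another small protein of the large subunit with a bacterial counterpart (chr13:73328513-73332178, plus strand), overlaps the complex I gene Ndufs6 on the other strand. Its sh-Ctl libraries lay at 62.4, 64.7, 81.6 and 92.8 CPM at ZT0 and at 43.9, 46.3, 48.6 and 56.4 CPM at ZT12, without overlap, and its amplitude was 0.22 ± 0.05 with a peak at ZT 23.4 ± 0.85 h (adjusted p = 0.00134). Mrpl4 (chr9:21002738-21008839, plus strand), whose counterpart lines the peptide tunnel, lay at 27.3, 36.1, 37.2 and 38.4 CPM at ZT0 and at 10.4, 19.6, 20.1 and 21.4 CPM at ZT12. These times did not overlap either, and its amplitude of 0.39 ± 0.09 was the largest of the 11, with a peak at ZT 22.3 ± 0.83 h (adjusted p = 0.00137). In sh-Acsf3 the adjusted p was 0.135 for Mrpl36 and 0.0861 for Mrpl4, with amplitudes of 0.13 ± 0.05 and 0.25 ± 0.09. Without the first replicates neither passed in sh-Ctl.

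**Figure D3:**
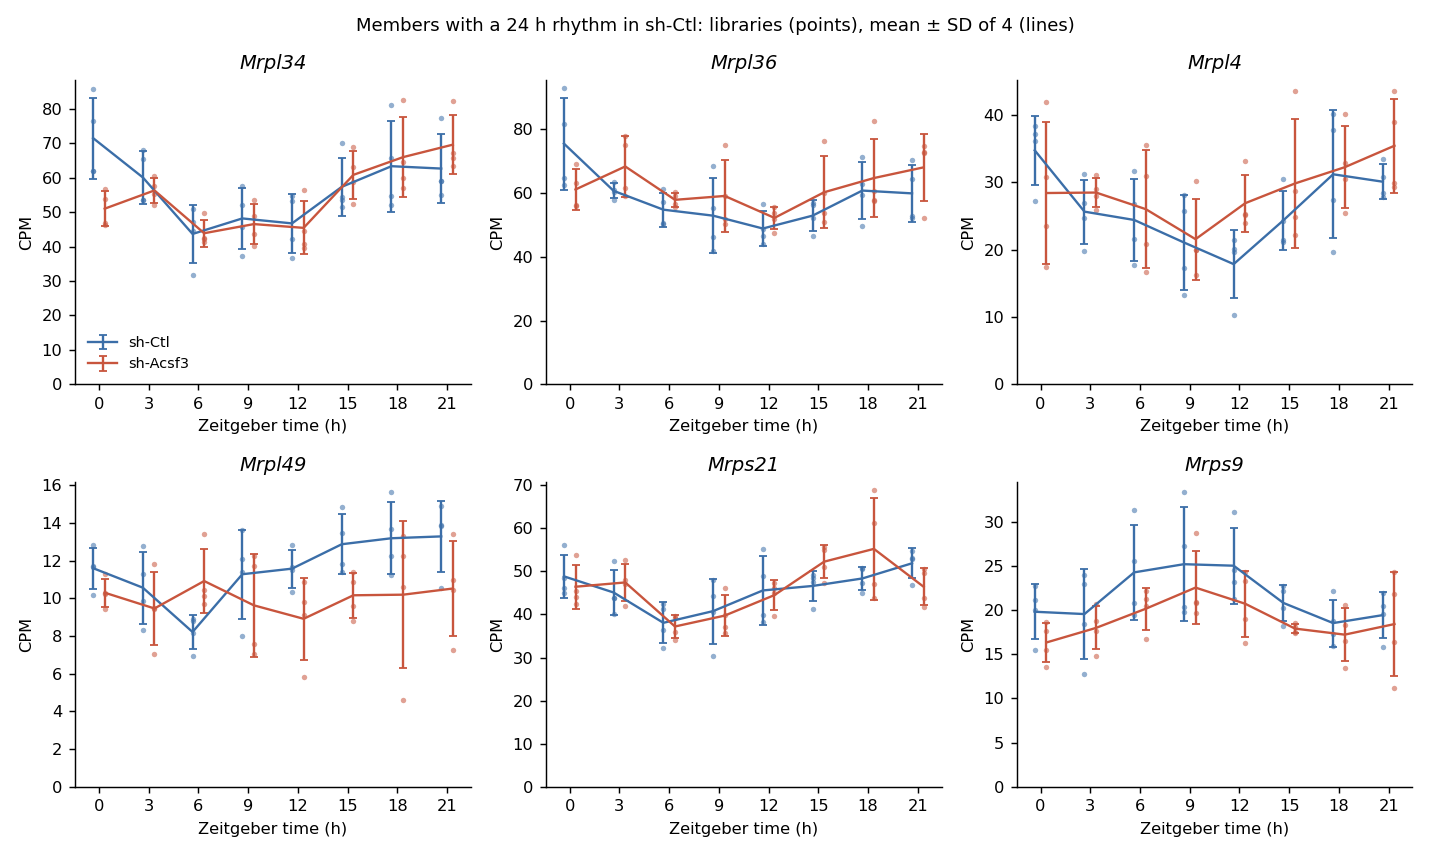
CPM (y axis, from 0) against zeitgeber time (x axis, h) of 6 members rhythmic in sh-Ctl, with 1 point per library and lines for the mean ± SD of 4 libraries, blue for sh-Ctl and red for sh-Acsf3. The means of Mrpl34, Mrpl36 and Mrpl4 are lowest between ZT6 and ZT12, whereas those of Mrps9 are highest at ZT9.

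A further group of 5 members peaked between ZT12 and ZT24 in sh-Ctl. Mrpl18 was highest at ZT15, with libraries at 59.0, 80.8, 81.8 and 82.9 CPM, and lowest at ZT9, at 49.8, 51.5, 52.8 and 54.1 CPM, without overlap. Its amplitude was 0.18 ± 0.04 with a peak at ZT 16.9 ± 0.93 h (adjusted p = 0.00858), and in sh-Acsf3 0.22 ± 0.05 with a peak at ZT 14.7 ± 0.85 h (0.00172). Mrpl18 was thus both lower and rhythmic, as were Mrpl30 and Mrps9 in sh-Ctl. Mrps21, a small-subunit protein with a bacterial counterpart (chr3:95862634-95871519, minus), had an amplitude of 0.18 ± 0.04 with a peak at ZT 19.8 ± 0.90 h (0.0104) in sh-Ctl and of 0.20 ± 0.04 with a peak at ZT 18.6 ± 0.84 h (0.00324) in sh-Acsf3. Mrpl20, whose counterpart acts early in large-subunit assembly (chr4:155802878-155809975, plus), peaked at ZT 17.5 ± 0.83 h in sh-Ctl (0.0172). Mrpl42 (chr10:95480805-95501940, minus) peaked at ZT 20.5 ± 0.99 h (0.0184) and Mrpl30 at ZT 21.2 ± 0.98 h (0.0345), both with amplitudes under 0.16.

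The remaining 3 members rhythmic in sh-Ctl were Mrps9, Mrps16 and Mrpl49. Mrps9, a protein of the head of the small subunit, peaked at ZT 9.44 ± 1.17 h with an amplitude of 0.21 ± 0.06 (adjusted p = 0.0160). Its libraries overlapped between ZT9, at 19.8, 20.4, 27.3 and 33.4 CPM, and ZT18, at 15.9, 17.3, 18.8 and 22.1 CPM. Mrps16 (chr14:20389304-20393634, minus) peaked at ZT 1.07 ± 0.98 h in sh-Ctl (0.0353) and at ZT 1.21 ± 0.90 h in sh-Acsf3 (0.00640), with amplitudes of 0.11 and 0.14. Mrpl49, a mitochondria-specific protein (chr19:6053622-6057785, minus) that overlaps Syvn1 on the other strand, peaked at ZT 17.9 ± 0.79 h in sh-Ctl with an amplitude of 0.25 ± 0.05 (0.00673). In sh-Acsf3 its amplitude was 0.06 ± 0.08 (adjusted p = 0.825). Mrps30 came next in sh-Ctl and did not pass (0.0525).

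In sh-Acsf3 a further 4 members passed that did not in sh-Ctl. Mrps6 (chr16:92058270-92112227, plus strand), which overlaps Slc5a3 on the same strand, had an amplitude of 0.30 ± 0.09 with a peak at ZT 17.7 ± 1.14 h (adjusted p = 0.0183), against 0.20 ± 0.07 in sh-Ctl (0.132). Mrpl15 (chr1:4773206-4785739, minus) had an amplitude of 0.15 ± 0.05 with a peak at ZT 18.0 ± 1.17 h (0.0335). Mrpl44, a mitochondria-specific protein with a ribonuclease III fold (chr1:79776018-79781445, plus), and Mrpl22, a protein of the peptide tunnel (chr11:58171661-58179565, plus), passed with adjusted p of 0.0443 and 0.0457.

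**Figure D4:**
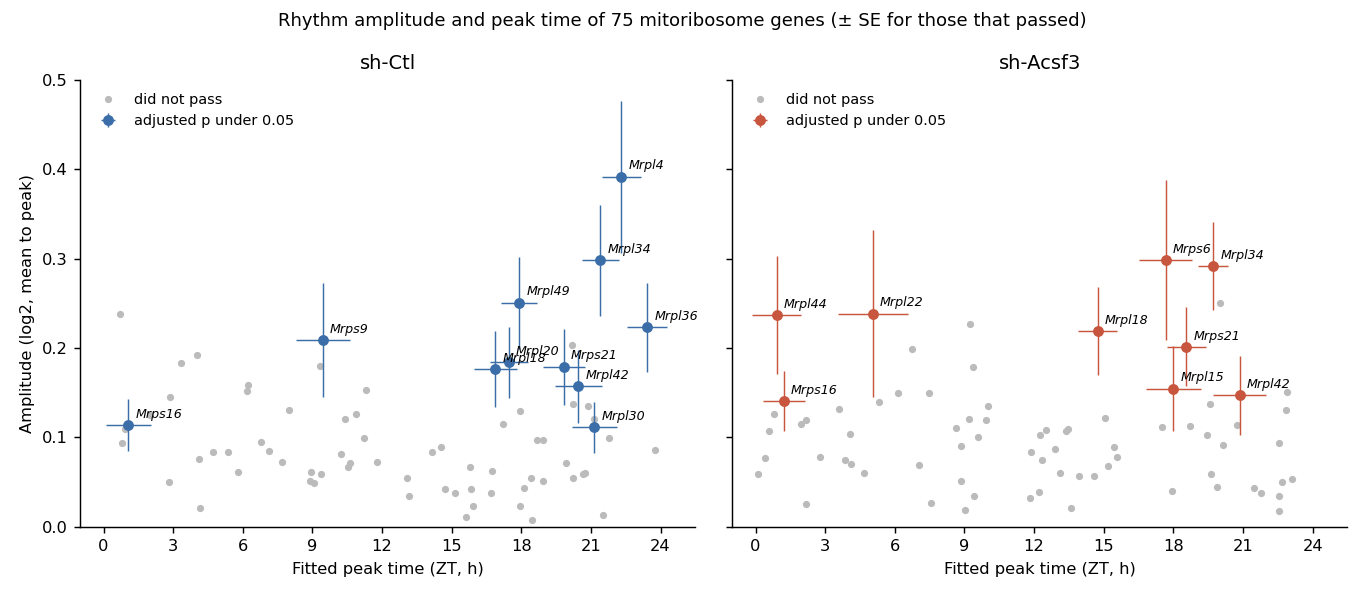
Amplitude (y axis, log2, mean to peak) against fitted peak time (x axis, ZT in h) of the 75 tested members in sh-Ctl (left) and sh-Acsf3 (right), coloured with SE bars where the rhythm passed. In sh-Ctl 9 of the 11 coloured points lie between ZT12 and ZT24, and in sh-Acsf3 6 of 9.

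Whether a rhythm differed between the treatments was tested directly. No gene passed (0% of 10097), and at an unadjusted p under 0.05 there were 3 members (4.00%) and 4.27% of all genes. The 3 were Mrpl14, Mrpl52 and Mrpl49, with unadjusted p of 0.0292, 0.0397 and 0.0446 and adjusted p of 1.00. Mrpl45, which anchors the ribosome to the inner membrane, and Mrps18c, the paralog of Mrps18a and Mrps18b, followed at 0.0717 and 0.0749. Hence a member rhythmic in 1 treatment is not shown to differ from the other treatment. DESeq2 and limma-voom also called no member in this test or in that of equal differences.

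The rhythm counts depended on single libraries and on the form of the test. Leaving out 1 library gave 8 to 12 members in sh-Ctl and 5 to 11 in sh-Acsf3, with 5 without replicate 3 at ZT3, replicate 1 at ZT9 or replicate 4 at ZT15 of sh-Acsf3. A test for any difference among the 8 times called 4 members in each treatment, a count not set against that of all genes. Of 16 other settings, the sh-Ctl rhythm passed in 15 for Mrpl36 and Mrpl4, 14 for Mrpl49, 13 for Mrpl18 and Mrps9, 11 for Mrpl20, 10 for Mrps21 and Mrpl42, 6 for Mrpl30 and 5 for Mrps16. The sh-Acsf3 rhythm passed in 16 of them for Mrpl18, 15 for Mrps21, 10 for Mrps16, Mrps6 and Mrpl15, 7 for Mrpl22, 6 for Mrpl42 and 5 for Mrpl44. In sh-Ctl, Mrpl42 did not pass without replicate 4 at ZT18 (adjusted p 0.0587) nor Mrps9 without replicate 4 at ZT9 (0.0521), and Mrpl30 and Mrps16 passed in 56 and 50 of the 64 fits that left out 1 library. In sh-Acsf3, Mrps6 did not pass without replicate 3 at ZT18 (0.0666), and Mrpl15, Mrpl22, Mrpl44 and Mrpl42 passed in 57, 46, 44 and 37 of those fits.

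The core clock genes show what a strong rhythm looks like in the same libraries. Of 13 tested, 12 passed in sh-Ctl and 13 in sh-Acsf3, with a median amplitude of 1.41 (log2) in sh-Ctl. Dbp, a clock output transcription factor, had an amplitude of 2.64 ± 0.12 with a peak at ZT 10.8. The largest amplitude of a called member was 0.39, that of Mrpl4.

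The rest of the mitochondrial translation apparatus was read from lists of related genes. Of 4 tested mitoribosome proteins with other names 1 was lower (median -0.11), Gadd45gip1, at -0.13 ± 0.04 (adjusted p = 0.0269). None of the 4 was rhythmic. Of 25 tested genes for mitoribosome assembly and rRNA modification 3 were lower (12%) and 1 higher (4%), against 6.21% and 8.26% of all genes (median -0.06). Malsu1, which keeps an unfinished large subunit from joining the small one, changed by -0.19 ± 0.04 (0.000540), and Nsun4, an rRNA methyltransferase that also acts in assembly, by -0.27 ± 0.07 (0.00514). Mettl15, an rRNA methyltransferase of the small subunit, changed by 0.44 ± 0.15 (0.0405) at a mean of 1.79 CPM in sh-Ctl. Malsu1 was also rhythmic, with a peak at ZT 8.82 in sh-Ctl (0.00361), as was the GTPase Gtpbp10 (0.0347). These were 2 of the 25 (8%), against 19.4% of all genes.

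Of 15 tested translation factors and mRNA-binding proteins 1 was lower (6.67%), against 6.21% of all genes. Slirp, the partner of Lrpprc in keeping mitochondrial mRNAs stable, went from 39.1 CPM ± 5.30 to 32.3 ± 3.94 (SD within times, n = 32 each), a difference of -0.27 ± 0.05 (edgeR adjusted p = 3.46e-05), while Lrpprc itself was at -0.08 ± 0.05 (0.365). Of 18 genes for mitochondrial aminoacyl-tRNA synthetases and the glutamyl-tRNA amidotransferase 1 was lower (5.56%), Nars2 for asparagine, at -0.23 ± 0.07 (0.0181). Lars2 for leucine was at -0.47 ± 0.19 and did not pass (0.0779). Of 10 genes for mitochondrial DNA maintenance and transcription none passed, with the helicase Twnk nearest at -0.19 ± 0.08 (0.0789), and Top1mt was rhythmic (0.00766).

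Of the 13 mitochondrially encoded mRNAs, the templates of mitochondrial translation, only 7 were tested. None of these passed, with mt-Cytb nearest at -0.18 ± 0.07 (adjusted p = 0.0640). The proteins made from these mRNAs assemble with nuclear-encoded subunits of the respiratory chain and ATP synthase. Of 74 tested nuclear genes for such subunits 25 (33.8%) were lower and none higher, against 6.21% and 8.26% of all genes (median -0.09). Ndufv1 of complex I changed by -0.21 ± 0.04 (0.000175) and Cox7a2l by -0.22 ± 0.05 (0.00159). In sh-Ctl 15 of the 74 were rhythmic (20.3%), near the 19.4% of all genes, led by Ndufa5 of complex I with a peak at ZT 19.9 (0.00163).

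Ribosomal proteins of the cytosol were read beside those of mitochondria. Of 80 tested, 3 (3.75%) were lower and 1 higher (median -0.04), and 4 (5%) were rhythmic in sh-Ctl, against 13.3%, 1.33% and 14.7% of the members. Rplp2 of the stalk changed by 0.25 ± 0.08 (adjusted p = 0.0187), and Rpl21 and Rpl41 by -0.12 ± 0.04 (0.0300) and -0.14 ± 0.05 (0.0329). Rpl6 had the smallest rhythm p, with a peak at ZT 20.1 (0.00976). The difference between the lists was not tested.

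Of 10 transcription regulators of mitochondrial biogenesis none passed the test between treatments (median -0.02). Myc was at 0.70 ± 0.31 (adjusted p = 0.129), Ppargc1b at -0.21 ± 0.10 (0.131) and Esrra at -0.14 ± 0.06 (0.150). Ppargc1b, a coactivator of nuclear receptors, and Esrra, the orphan receptor it works with, were rhythmic in sh-Ctl, with peaks at ZT 9.41 and ZT 15.3 and amplitudes of 0.62 and 0.35 (2.48e-05 and 2.91e-05).

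**Figure D5:**
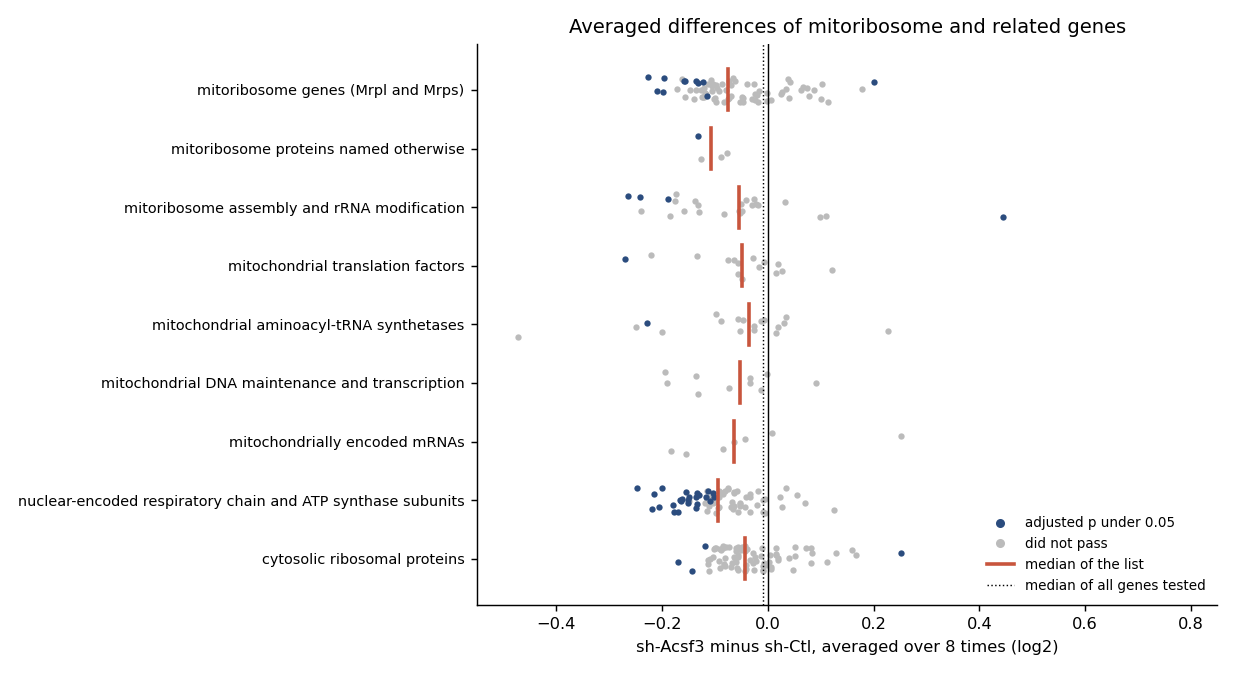
Averaged difference between sh-Acsf3 and sh-Ctl (x axis, log2) of the tested genes in each list (rows), with 1 point per gene, dark blue where the adjusted p was under 0.05, and a red bar for the median of the list. The medians of the 9 lists drawn lie to the left of the dotted line, the median of all genes tested, and range from -0.11 to -0.04. The transcription regulators (median -0.02) and core clock genes (median -0.08) are not drawn.

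Markers of some other cells moved with the treatment. The summed CPM of 6 T and NK cell markers ran from 2.91 to 13.3 in sh-Ctl and from 9.60 to 66.8 in sh-Acsf3, with 5 of 5 tested higher. That of 7 stellate cell and fibroblast markers ran from 156 to 322 and from 331 to 707, with 7 of 7 higher, and that of 8 macrophage markers from 102 to 401 and from 131 to 419, with 5 of 8 higher. Sinusoidal endothelium had 2 of 6 tested markers higher and cholangiocytes 2 of 3, while 4 of 5 acute-phase genes were lower. The summed CPM of these 5 genes had a median of 95.8 in sh-Ctl and 134 in sh-Acsf3. Its highest value was 9029 in sh-Ctl, in a library high in Saa1, and 370 in sh-Acsf3. Of all genes 8.26% were higher and 6.21% lower. None of 5 red blood cell and 15 tested pancreas markers passed. Of the 7 hepatocyte markers 3 were lower, and no defining marker of these lists was at 0 in every library. In whole liver, fewer cells of a type and less RNA per cell cannot be told apart, and the part of these markers in the members' differences was not tested. Without the 12 libraries high in Saa1 or pancreas RNA the members' median was -0.09, with 7 members lower and none higher.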

How the data were processed

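Raw UMI counts per gene, deposited by the authors as 1 table of 64 liver libraries, were used. Per the submitters' processing notes the reads were aligned with STAR to GRCm38/mm10, and its version, the annotation and the merging of UMIs are not given in the sources used here. Columns were matched to samples by treatment, time and replicate number.

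In R 4.3.3, edgeR 4.0.16 was run on genes kept by filterByExpr (minimum count 10, minimum total 15; 10097 genes), with TMM scaling and robust quasi-likelihood fits (common biological coefficient of variation 0.189). A fit of 16 group means (48 residual degrees of freedom) gave the treatment difference (sh-Acsf3 relative to sh-Ctl) as the mean of the 8 times, at each time, and the test of equal differences. The rhythm tests came from a fit with 1 mean and 1 cosine and sine of 24 h for each treatment (residual degrees of freedom 58). The Benjamini-Hochberg adjustment of each test covered all of its genes, with a threshold of 0.05. CPM are counts scaled to a common total after TMM normalization. Amplitudes and peaks came from least squares on log2 CPM (prior count 2), and the SE of a log2 difference from its p-value. Totals of 0.839 to 9.35 M UMIs, and a median of 7.5 UMIs per library for the weakest tested member, limit the precision.

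Alternatives were a mean CPM of at least 5 or no filter on genes, RLE size factors, totals only, DESeq2 1.42.0, limma-voom (limma 3.58.1), an additive model, a replicate block, 24 h and 12 h cosines, any difference among the 8 times, fits on 1 time, and leaving out each replicate number or library. Leaving out libraries high in Saa1 or pancreas RNA, and each library for the sh-Acsf3 rhythm, was an addition made after seeing the data. The members and gene lists were chosen with earlier results of these data known. Members were named if they passed the averaged test, were among the 12 and 6 smallest rhythm p in sh-Ctl and sh-Acsf3, the 5 of differential rhythm or the 4 of equal differences, were untested, or had the 2 highest or 2 lowest means. Of each list up to 3 genes with the smallest p were named, except 1 that is not reported here. Mrpl54, Lrpprc and genes named for a motif or a neighbour fall outside this rule and were named after their values were seen. The scripts were tested on simulated counts, with 50 genes changed at each size. The averaged test found 20% of changes of 1.15-fold and 60% of those of 1.25-fold. The rhythm test in sh-Ctl found 2% of peak-to-trough rhythms of 1.25-fold and 54% of those of 1.5-fold. These simulated tests called 96 and 126 genes, against 1461 and 1954 in the data, so their adjusted threshold was stricter. The shares found therefore do not carry over to the members. Plots were made in Python 3.11.15 with matplotlib 3.10.9.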

Additional observations from a re-analysis of the deposited data

Results flagged for a closer look

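In 112 groups of 4 libraries (the members' summed CPM and 6 members, Mrps24, Mrpl28, Mrpl34, Mrpl18, Mrpl36 and Mrpl4, in each of 16 groups), 11 held a library set apart from the other 3 by Dixon's ratio at the 95% level, where chance gives about 1 in 20. No group stood out in the summed CPM. Mrpl18 had 3 such libraries: replicate 4 of sh-Acsf3 at ZT0 at 75.4 CPM, with the others at 42.1 to 46.0, replicate 2 of sh-Ctl at ZT0 at 70.7 CPM, with the others at 61.9 to 62.9, and replicate 2 of sh-Ctl at ZT15, which is high in Saa1, at 59.0 CPM, with the others at 80.8 to 82.9. Mrpl36 had 2 in sh-Acsf3, both replicate 3, at 82.6 CPM at ZT18 (others 57.4 to 60.6) and at 52.2 CPM at ZT21 (others 72.5 to 74.5). Mrpl34 had 2, replicate 1 of sh-Acsf3 at ZT6 at 49.6 CPM (others 41.2 to 42.5) and replicate 1 of sh-Ctl at ZT15 at 69.9 CPM (others 51.5 to 54.4). At ZT12, replicate 4 of sh-Ctl was low in both Mrpl28, at 40.1 CPM (others 52.4 to 53.0), and Mrpl4, at 10.4 CPM (others 19.6 to 21.4), and replicate 4 of sh-Acsf3 was high in Mrpl4, at 33.2 CPM (others 23.9 to 25.4). Mrps24 had 1, replicate 4 of sh-Acsf3 at ZT15 at 145.7 CPM (others 136 to 138).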

How the results depend on the processing

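The members' median averaged difference stayed below 0 under all 15 other settings (-0.09 to -0.02), and none of the 11 called members changed sign. With totals only, 44 of 75 members were below 0, against 58 as reported. The count of members lower (10 as reported) was 1 with totals only, 6 with a mean CPM of at least 5, 5 without a gene filter, 2 to 8 without a replicate number and 6 to 12 without a single library. The count of members higher (1) was 2 with totals only (Mrpl28 and Mrpl54), 0 without both sets of libraries and 0 to 1 without a replicate number. Calls among all genes, in either direction, numbered 1461 as reported and 1372 with totals only. They numbered 971 with a mean CPM of at least 5, 1909 without a gene filter and 787 to 1361 without a replicate number. Rhythmic members in sh-Ctl (11) numbered 4 by any difference among the 8 times and 4 to 8 without a replicate number. In sh-Acsf3 (9) they numbered 4 by any difference among the 8 times, 5 without a gene filter and 3 to 7 without a replicate number. These rhythm counts under other settings were not set against those of all genes. A single time gave 1 call, Mrpl18 at ZT0, without replicate 4, and 0 to 1 over the replicate numbers. No member was called for equal differences or differential rhythm under any of 14 other settings. The causes were not tested. Same-numbered libraries of the 2 treatments showed little shared deviation (32 pairs, correlation -0.16 to 0.26, median 0.02, over 0.1 in 7 pairs). Such values cannot show whether the numbers mark a pairing or a batch, and the main fits used neither. With a replicate block, 1 member was higher and 9 lower, and 11 and 10 were rhythmic in sh-Ctl and sh-Acsf3. Whether 4 libraries a group could show differences of this size at a single time was not tested.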

Other observations

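Of the 6 rows named as pseudogenes of members, 3 held no UMI. Mrpl23-ps1 held 1091 UMIs over the 64 libraries, more than the 870 of Mrpl23, its parent gene for a protein at the exit of the peptide tunnel, and was at 0 in none of them. Mrps36-ps1 held 15 UMIs against 218 of Mrps36, and Mrpl48-ps held 3. The averaged difference of Mrpl23 was 0.18 ± 0.10 (log2, SE) and did not pass. The part of the pseudogene row in that value was not tested.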
